A study of Homo sapiens with 5 samples.

Results

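The messenger RNAs described here are those with at least 1 listed cross-linking region in an exon of a protein-coding gene. The cells were HEK-293, an established line from human embryonic kidney. A gene was taken as a member where a region of any of the 5 deposited lists lay on its strand and was classed by the submitters as a protein-coding exon. EEF2, EIF4B, RACK1 and the ribosomal protein genes (names starting RPL, RPS or RPLP, but not RPS6K) were left out. The rule gave 149 gene names of the 1396 that carry a listed region of any kind, and 158 exon regions of the 3147 regions in all. The lists hold 714 protein-coding intron regions for comparison. The class held for each member region, although 62 of the 158 regions lie in an exon of one transcript and in an intron of another transcript, and 96 lie in exons alone.

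CLIP (cross-linking and immunoprecipitation) joins RNA to the protein that touches it with ultraviolet light, trims the RNA with RNase, pulls down the protein and sequences the RNA that remains. In experiment 1, cells were transfected with GFP or with GFP-(GR)50, a fusion of GFP to 50 glycine-arginine repeats (replicate 1), with 0.04 units/ml of RNase I for trimming. In experiment 2, untransfected cells, cells with GFP-(GP)10, a fusion to 10 glycine-proline repeats, and cells with GFP-(GR)50 (replicate 2) were used with 0.02 units/ml of the same enzyme. All 5 libraries came from cells irradiated at 100 mJ/cm2 and 254 nm, were captured with GFP-binding beads and were sequenced as single reads of 110 nt. The proteins came from lipofected plasmids, so each transfected group models overexpression in a dividing line, and the untransfected cells have no GFP for the beads to capture. Each control is 1 library, the GP fusion carries fewer repeats than the GR fusion, and the labels place the GFP-(GR)50 replicates in separate experiments without naming cultures. Region lists hold too few genes to check the cell line against marker genes.

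The cell makes poly-GR, a chain of alternating glycine and arginine, by translating the expanded repeat of C9orf72, the commonest known genetic cause of familial amyotrophic lateral sclerosis (ALS) and frontotemporal dementia (FTD). Its arginines give it a strong positive charge, and it is known to bind RNA, to gather in nucleoli and to associate with ribosomes. Exons are the parts of a gene that remain in mature messenger RNA, so a read from an exon can come from a spliced message in the cytoplasm or from the unspliced transcript in the nucleus, whereas a read from an intron comes from unspliced or excised RNA.

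Ribosomal RNA (rRNA) regions were set aside before shares were taken. Outside rRNA the lists held 391 regions for GFP, 67 for GFP-(GR)50 replicate 1, 1267 for untransfected cells, 264 for GFP-(GP)10 and 682 for GFP-(GR)50 replicate 2. The uniquely mapping reads in those regions ranged from 220 in GFP-(GR)50 replicate 1 to 8363 in the untransfected library. Each list gives uniquely mapping reads and a second value in which reads with several map positions are shared among them, called listed reads here, and every listed region has at least 5 listed reads. A gene with no listed region may therefore have reads below that minimum. Intervals cover counting error only, since reads in a region are not all independent molecules. Every test of 2 lists below compares 1 library with 1 library, so a p-value reflects how regions scatter within those lists and not how cultures differ.

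Exons of these genes took a larger share of the regions in each GFP-(GR)50 list than in the control lists of the same experiment. With GFP they held 12 of 391 regions, or 3.07% (exact 95% interval 1.60 to 5.30). With GFP-(GR)50 replicate 1 they held 10 of 67 regions, or 14.9% (7.40 to 25.7). The difference was 11.9 percentage points, with an odds ratio of 5.54 (95% interval 2.29 to 13.4) and an adjusted p of 5.39e-04 (two-sided Fisher exact test, Benjamini-Hochberg over 3 comparisons). The call was lost with all listed regions, rRNA included, as the total (2.92 points, adjusted p 0.0875), outside structured RNA and contigs (17.1 points, 0.0602) and among regions with at least 10 listed reads, where neither list held an exon region of the genes. In experiment 2 the share was 3.47% in untransfected cells (44 of 1267, 2.53 to 4.63), 4.92% with GFP-(GP)10 (13 of 264, 2.65 to 8.27) and 11.6% with GFP-(GR)50 replicate 2 (79 of 682, 9.28 to 14.2). Against untransfected cells the odds ratio was 3.64 (2.49 to 5.33), with an adjusted p of 4.33e-11 in the same Fisher exact test. Against GFP-(GP)10 it was 2.53 (1.38 to 4.63), with an adjusted p of 0.00139. Over libraries the share was 13.3% ± 2.36 (SD, n = 2) with GFP-(GR)50 and 3.82% ± 0.976 (SD, n = 3) in the controls. Both GFP-(GR)50 values lay above all 3 controls. The exact two-sided permutation test over the 5 libraries gave p = 0.1, which is the smallest p that 2 libraries against 3 allow. With experiment as a block the difference was 9.30 points, and exchanging libraries only within their experiment gave an exact p of 0.167, again the smallest possible. With all listed regions as the total the difference over libraries was 4.45 points.

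**Figure D1:**
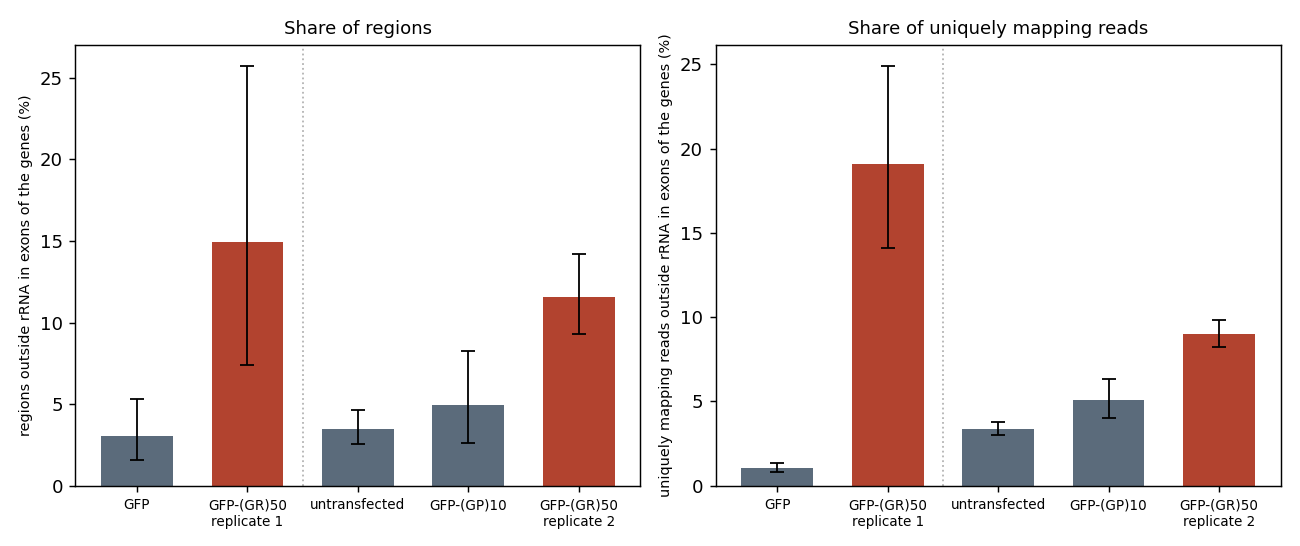
Share of listed regions outside rRNA (left, %) and of uniquely mapping reads outside rRNA (right, %) that lie in protein-coding exons of the 149 genes, 1 bar per library with the experiments divided by a dotted line, and exact 95% intervals that cover counting error. Both GFP-(GR)50 libraries, at 14.9% and 11.6% of regions, sit above the 3 control libraries, which lie between 3.07% and 4.92%.

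The reads gave the same order within each experiment. Exons of the genes held 60 of 5797 uniquely mapping reads outside rRNA with GFP (1.04%, exact 95% interval 0.791 to 1.33) and 42 of 220 with GFP-(GR)50 replicate 1 (19.1%, 14.1 to 24.9), a ratio of shares of 18.4. They held 281 of 8363 in untransfected cells (3.36%, 2.98 to 3.77), 74 of 1451 with GFP-(GP)10 (5.10%, 4.03 to 6.36) and 432 of 4802 with GFP-(GR)50 replicate 2 (9.0%, 8.20 to 9.84). The ratio for replicate 2 was 2.68 against untransfected cells and 1.76 against GFP-(GP)10. No test was made on reads. With rRNA reads kept in the total the 3 ratios were 2.72, 1.43 and 0.963, so the last fell just below 1. When each list was cut to its 183 most-read regions, the difference in region share for replicate 2 turned to -0.189 points against untransfected cells and -1.36 points against GFP-(GP)10.

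These were shallow regions. Of the 158, 148 had fewer than 10 listed reads and 74 stood at the minimum of 5. The highest count of uniquely mapping reads was 21, in MATR3 in untransfected cells. The numbers at the minimum were 5 of 12 regions with GFP, 7 of 10 with GFP-(GR)50 replicate 1, 15 of 44 in untransfected cells, 7 of 13 with GFP-(GP)10 and 40 of 79 with GFP-(GR)50 replicate 2.

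Most of the genes were listed once. Of the 149, 136 had an exon region in 1 library, 11 in 2 libraries and 2 in 3 libraries. Counting regions of any kind, 126 of the 149 (84.6%) were listed in 1 library, beside 1095 of all 1396 names (78.4%). The GFP-(GR)50 lists named 10 genes in replicate 1 and 81 in replicate 2, against 12 with GFP, 47 in untransfected cells and 14 with GFP-(GP)10. All 10 genes of replicate 1 had no region of any kind in the GFP list. The background for that count is high, because 52.4% of all 63 gene names outside rRNA in the same list had none. For replicate 2, 71 of 81 genes (87.7%) had no region in the untransfected list, beside a background of 76.4% over 488 names. Against GFP-(GP)10 the count was 76 of 81 (93.8%), beside a background of 86.7%. Most names of any kind were thus absent from the control list too, so a single unshared gene says little. By position, 7 of the 79 exon regions of replicate 2 (8.86%) overlapped a listed region of another library by at least 1 bp on the same strand, as did 2 of 10 in replicate 1, both of them in the multimapping MTRNR2L genes described below, 3 of 12 with GFP, 4 of 44 in untransfected cells and 2 of 13 with GFP-(GP)10. Over all regions outside rRNA the same share was 34.6% in replicate 2, 70.1% in replicate 1, 39.6% with GFP, 16.1% in untransfected cells and 58.0% with GFP-(GP)10.

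MATR3 and WDR90 were the genes listed in 3 libraries. MATR3 encodes matrin 3, a nuclear RNA-binding protein whose mutations cause ALS. Its exon regions held 21 uniquely mapping reads in untransfected cells, 7 with GFP-(GP)10 and 11 with GFP-(GR)50 replicate 2, which is 2.51 (exact Poisson 95% interval 1.55 to 3.84), 4.82 (1.94 to 9.94) and 2.29 (1.14 to 4.10) per 1000 uniquely mapping reads outside rRNA. The 3 intervals overlap, and the difference between libraries was not tested. The untransfected region (chr5:139311748-139311802, hg38) and the GFP-(GR)50 region (chr5:139311681-139311799) overlap by 51 bp. The GFP-(GP)10 region lies elsewhere in the gene, at chr5:139315148-139315187. WDR90, a WD-repeat gene, had 4 uniquely mapping reads in untransfected cells, 5 with GFP-(GP)10 and 10 over 2 regions with GFP-(GR)50 replicate 2. The untransfected and GFP-(GP)10 regions of WDR90 start at the same base and overlap by 52 bp.

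DNMT3A, ACTG1, ENO1 and GPI were shared between GFP-(GR)50 replicate 2 and a control of its experiment. DNMT3A, a de novo DNA methyltransferase, had 13 uniquely mapping reads in untransfected cells and 6 with GFP-(GR)50, or 1.55 and 1.25 per 1000, in regions that overlap by 82 bp. ACTG1, cytoplasmic gamma-actin, had 5 reads with GFP-(GP)10 and 11 over 2 regions with GFP-(GR)50, or 3.45 and 2.29 per 1000. ENO1, the glycolytic enzyme enolase 1, had 7 reads in untransfected cells and 5 with GFP-(GR)50. These ENO1 regions lie far apart, at 99.5% and 21.6% of the way along the gene. GPI, glucose-6-phosphate isomerase, had 6 and 5 reads in the same libraries, at different places. The clone name AC092073.1 shares both GPI regions. For these 4 genes a control library thus held exon reads as well.

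A few further genes were shared across other pairs of libraries, and their counts were small in each. HIST1H3B, a replication-dependent histone H3 gene, had 7 uniquely mapping reads with GFP and 5 with GFP-(GR)50 replicate 2, in regions that overlap by 89 bp. Histone genes have near-identical copies, and the listed reads of HIST1H3B, 8.5 and 5.5, show that some of them map elsewhere too. SET, a histone chaperone, had 3 reads with GFP and 8 in untransfected cells. SEC61A1, the pore subunit of the endoplasmic reticulum translocon, had 5 reads with GFP and 5 with GFP-(GP)10, at different places.

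**Figure D2:**
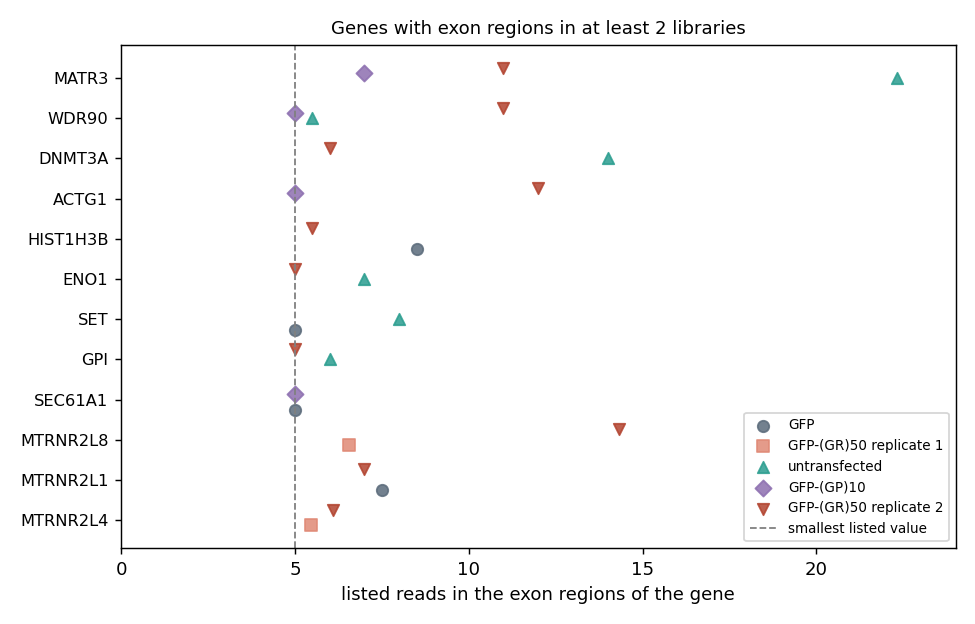
Listed reads (multimapping reads shared among their positions) summed over the exon regions of each gene that is listed in at least 2 libraries, 1 marker per library, with the clone name that shares the GPI regions left out. The dashed line is the smallest listed value, 5; MATR3 in untransfected cells, at 22.33, is the highest point, and a missing marker means no listed exon region.

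MTRNR2L8 and MTRNR2L4 were the genes named in both GFP-(GR)50 lists. They are nuclear genes that resemble the mitochondrial 16S rRNA, and their reads could not be placed uniquely. MTRNR2L8 had 1 uniquely mapping read of 6.57 listed reads in replicate 1 and 2 of 14.32 in replicate 2. MTRNR2L4 had 0 of 5.47 and 0 of 6.1. The other listed gene of the family, MTRNR2L1, had 0 of 7.5 with GFP and 1 of 7 with GFP-(GR)50 replicate 2, so the family was listed in a control too. The lists hold 0 regions on the mitochondrial chromosome, and whether these reads came from the nuclear genes or from mitochondrial rRNA cannot be told apart here.

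The other 8 genes of GFP-(GR)50 replicate 1 each had 5 or 6 uniquely mapping reads. IRF2BP2, a transcriptional corepressor, had 6. PARP1, the poly(ADP-ribose) polymerase that responds to DNA breaks, NFYC, a subunit of the CCAAT-binding factor NF-Y, and PAK1, a kinase downstream of Rac and Cdc42, had 5 each. ADCK1, BSDC1, FAM53C and SLC25A27, a mitochondrial carrier, had 5 each as well. None of these 8 was listed with GFP-(GR)50 replicate 2.

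GFP-(GR)50 replicate 2 was led by GNAS, which encodes the alpha subunit of the stimulatory G protein. Its region on chromosome 20 held 16 uniquely mapping reads over 470 bp, the widest of all member regions. ARPC4, a subunit of the Arp2/3 actin-nucleating complex, and its read-through transcript ARPC4-TTLL3 shared a region of 9 reads, and a further region of 5 reads lay in ARPC4-TTLL3 and TTLL3. MAZ, a zinc-finger transcription factor, shared a region of 11 reads with the clone name AC009133.5. NRARP, an inhibitor of Notch signalling, had 11 reads over 304 bp. DDX17, an RNA helicase, had regions of 6 and 5 reads, and PSMD12, a subunit of the proteasome lid, had 10 reads in 42 bp. None of these genes has a listed exon region in another library. ACTG1 and MATR3, with 11 reads each, and WDR90, with 10, ranked among them and had exon regions in control lists of experiment 2. Of all names in the replicate 2 list, 76.4% had no region in the untransfected list and 86.7% none in the GFP-(GP)10 list. The median region of this library had 5 listed reads, and no gene was tested alone.

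The control lists were led by other messages apart from MATR3. With GFP the leading genes were HIST1H3B, CCNK, the cyclin K gene, and ISYNA1, inositol-3-phosphate synthase, with 7, 6 and 6 uniquely mapping reads, and N4BP1, OXA1L and WDFY3 tied at 6. In untransfected cells MATR3, SENP7, a SUMO protease, and DNMT3A had 21, 13 and 13. With GFP-(GP)10, MATR3, SUB1, a transcriptional coactivator, and TOMM22, a receptor of the mitochondrial import pore, had 7 each, as did WAC.

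By role, the genes were scattered: 22 of 149 (14.8%) belong to any of 12 lists with 395 genes in all. The lists are not complete, so each count covers the listed genes alone. For the machinery of translation and ribosome assembly, the counts below stand beside 22 of 395 genes over all 12 lists. The rule itself left out the ribosomal protein genes, EEF2, EIF4B and RACK1. A region of any kind was listed for 8 of the 46 translation factors and for 7 of the 38 nucleolar and ribosome biogenesis factors. Of 46 translation factors 2 are members: EEF1G, an elongation factor subunit, with regions of 6 and 3 uniquely mapping reads in GFP-(GR)50 replicate 2, and EIF1, a start-codon selection factor, with 5 reads in the GFP-(GP)10 library. EEF1G is also the sole member among 18 other messages with a terminal oligopyrimidine tract. Of 38 nucleolar and ribosome biogenesis factors 2 are members, both through exon regions with GFP-(GR)50 replicate 2. These are POLR1B, a subunit of RNA polymerase I, with 6 reads, and NOP56, a core protein of box C/D small nucleolar ribonucleoproteins, with 5. Of 41 aminoacyl-tRNA synthetases and endoplasmic reticulum targeting factors, the members are SEC61A1 and IARS, isoleucyl-tRNA synthetase, the latter with 6 reads in GFP-(GR)50 replicate 2.

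Among 42 hnRNP and SR splicing factors, 3 are members, each in a different library of experiment 2. HNRNPU had 9 uniquely mapping reads with GFP-(GR)50 replicate 2, SRSF6 had 6 with GFP-(GP)10 and HNRNPH1 had 3 in untransfected cells. Among 30 stress granule proteins, DDX3X, an RNA helicase, and UBAP2L had 5 reads each in untransfected cells, and 0 genes of that list had an exon region in either GFP-(GR)50 library. Of 30 ALS and FTD genes, MATR3 is the sole member.

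Metabolic and structural messages gave the rest. Of 18 glycolysis genes 4 are members: ENO1 and GPI in untransfected cells and GFP-(GR)50 replicate 2, PGK1, phosphoglycerate kinase, with 5 reads in untransfected cells, and PKM, pyruvate kinase, with 5 in GFP-(GR)50 replicate 2. Glycolysis was thus listed at 3 genes in each of these libraries. Of the 38 genes listed for oxidative phosphorylation and other nuclear-encoded mitochondrial proteins 0 are members. That list is not complete, and CYC1, cytochrome c1 of complex III, and the mitochondrial ribosomal protein genes MRPL42 and MRPS34, which lie outside it, had 5 reads each with GFP-(GR)50 replicate 2. P4HB, protein disulfide isomerase, is the sole member of 37 heat shock and chaperone genes, with 7 reads in GFP-(GR)50 replicate 2, and ACTG1 is the sole member of 38 cytoskeletal genes. ARPC4 of the Arp2/3 complex lies outside that cytoskeletal list. Of 37 histone and chromatin genes, the members are HIST1H3B, SET and PARP1. The histone genes HIST1H3H, HIST1H2BN, HIST2H4A and HIST2H4B and the methyltransferase gene DNMT3A are members that lie outside that list. No list held more than 3 members in any library, and none was tested as a set.

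The exon regions of GFP-(GR)50 replicate 2 were wider than those of the other lists. The median width was 36 bp with GFP, 33 bp with GFP-(GR)50 replicate 1, 47 bp in untransfected cells, 44 bp with GFP-(GP)10 and 56 bp with GFP-(GR)50 replicate 2. In that last library 21 of 79 regions (26.6%, exact 95% interval 17.3 to 37.7) were wider than the 110 nt read, against 3 of 79 in the other 4 libraries together. Its protein-coding intron regions were narrower: 6 of 187 (3.21%) were wider than a read. The exon regions of the left-out genes (ribosomal protein genes, EEF2 and RACK1) in the same library were wider still, with a median of 124 bp and 11 of 17 (64.7%) wider than a read. Wide regions were not particular to exons. Of all regions outside rRNA, those no wider than a read were 569 of 682 in GFP-(GR)50 replicate 2. They were 1199 of 1267 in untransfected cells, 240 of 264 with GFP-(GP)10, 327 of 391 with GFP and 39 of 67 with GFP-(GR)50 replicate 1. A region wider than a read is built from reads that start at more than 1 place. GNAS, NRARP, BSG, the basigin gene, at 214 bp, and ACTG1, at 178 bp, are among the 21. HIST2H4A and HIST2H4B, identical histone H4 copies, are as well, at 343 bp each with 8 listed and 0 uniquely mapping reads. Among exon regions of the genes, the wide form did not appear in GFP-(GR)50 replicate 1, whose widest exon region was 65 bp. The RNase I amount of that library was higher. RNase amount, depth and group cannot be told apart across the experiments. Within experiment 2, untransfected cells had 2 of 44 exon regions wider than a read and GFP-(GP)10 had 0 of 13. When the exon regions wider than a read were left out and other wide regions kept, the difference in region share between replicate 2 and GFP-(GP)10 was 3.85 points, with an adjusted p of 0.0549 (Fisher exact test). With all wide regions left out of both lists it was 4.78 points, with an adjusted p of 0.0294.

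**Figure D3:**
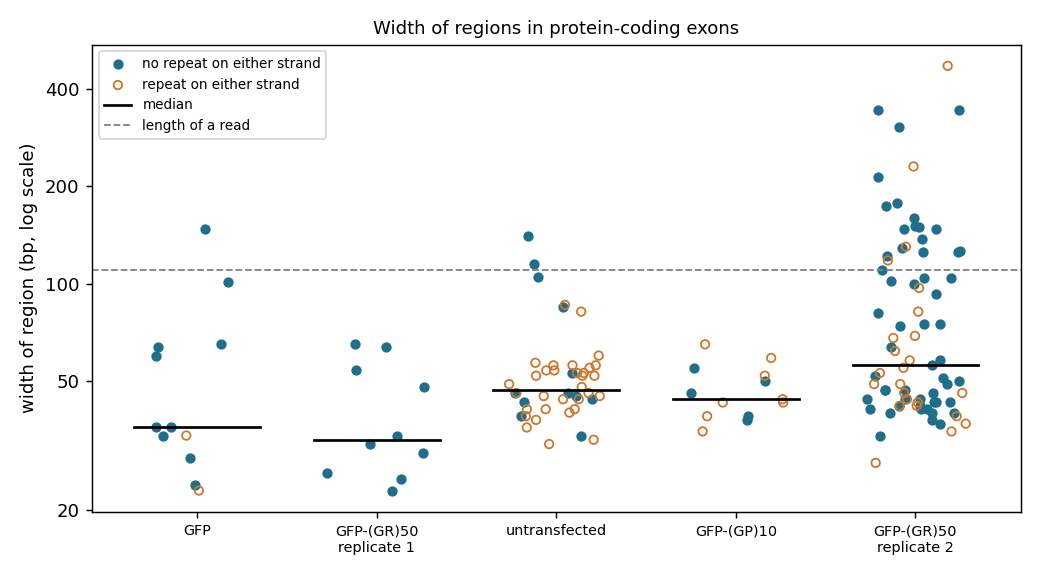
Width in bp (log axis) of each region in a protein-coding exon of the genes, 1 point per region, by library, with the median as a bar and the 110 nt read length as a dashed line; filled points have no repeat on either strand. In GFP-(GR)50 replicate 2, 21 of 79 regions lie above the read length, and 17 of these have no repeat.

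In each list a smaller share of the exon regions than of the intron regions lay opposite a repeat. A region opposite a repeat has an annotated repeat element on the other strand, so its RNA is the complement of that element. Among exon regions the counts opposite a repeat were 1 of 12 with GFP, 0 of 10 with GFP-(GR)50 replicate 1, 22 of 44 (50.0%) in untransfected cells, 5 of 13 (38.5%) with GFP-(GP)10 and 17 of 79 (21.5%, exact 95% interval 13.1 to 32.2) with GFP-(GR)50 replicate 2. Among intron regions they were 12 of 20 (60.0%), 1 of 6, 380 of 426 (89.2%), 68 of 75 (90.7%) and 146 of 187 (78.1%), in the same order. These shares are descriptions, and the difference between exons and introns was not tested.

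The extra exon regions with GFP-(GR)50 were mainly ones without a repeat. Regions with no repeat on either strand made up 55 of 79 exon regions with GFP-(GR)50 replicate 2, 12 of 44 in untransfected cells and 5 of 13 with GFP-(GP)10. As a share of all regions outside rRNA, exon regions without a repeat were 8.06% with GFP-(GR)50 replicate 2, 0.947% in untransfected cells and 1.89% with GFP-(GP)10. Exon regions with a repeat were 3.52%, 2.53% and 3.03%. In experiment 1, exon regions without a repeat were 14.9% with GFP-(GR)50 replicate 1, all 10 of them, and 2.56% with GFP. As shares of all regions outside rRNA, the exon regions with a repeat were thus similar in the 3 lists of experiment 2. Those without one differed most between them. These totals differ in repeats: 363 of 682 regions lay opposite no repeat with GFP-(GR)50 replicate 2, 315 of 1267 in untransfected cells and 127 of 264 with GFP-(GP)10. Among regions opposite no repeat, exon regions made up 17.1%, 6.98% and 6.30%, a smaller contrast. The split by a repeat on either strand was not tested.

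**Figure D4:**
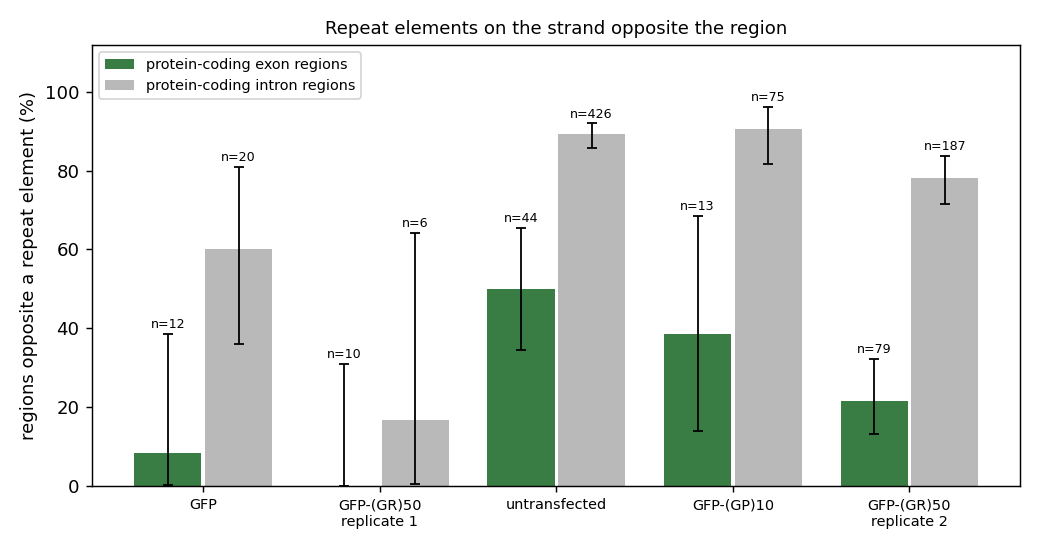
Percent of regions that lie opposite an annotated repeat on the other strand, for protein-coding exon regions of the genes and for protein-coding intron regions, by library, with exact 95% intervals. Intron regions exceed exon regions in each library, and the exon value is 50.0% in untransfected cells and 21.5% with GFP-(GR)50 replicate 2.

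Along the gene, exon regions had medians beyond the middle in all 5 libraries, as counted from the RefSeq gene's start to its end with introns included. This could be placed for 156 of the 158 regions. The median position was 87.3% of gene length with GFP, 59.3% with GFP-(GR)50 replicate 1, 87.5% in untransfected cells, 71.3% with GFP-(GP)10 and 69.7% with GFP-(GR)50 replicate 2. GFP-(GR)50 replicate 2 had 15 of 79 regions (19.0%) in the first 10% of the gene, against 2 of 77 in the other 4 libraries together. The 15 include HIST2H4B, at 1.81% with 0 uniquely mapping reads. The region in its identical copy HIST2H4A, also with 0 uniquely mapping reads, lies at 56.1%. The last 10% held 22 of 79 regions in GFP-(GR)50 replicate 2 and 19 of 43 in untransfected cells. This difference was not tested. Gene length differed too, with a median of 21034 bp with GFP-(GR)50 replicate 2 and 42696 bp in untransfected cells.

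**Figure D5:**
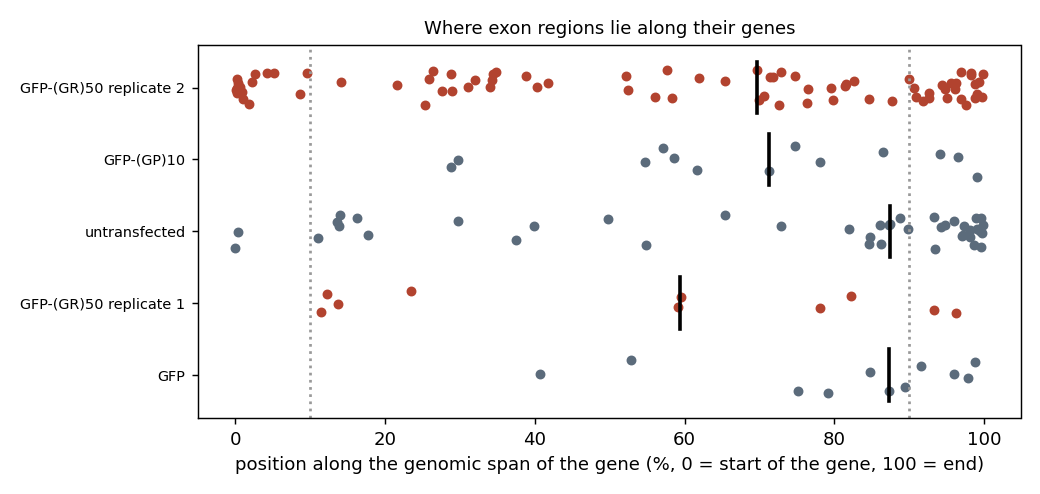
Position of each protein-coding exon region along its gene, in percent of the RefSeq gene length from start to end, 1 point per region, by library, with medians as bars and dotted lines at 10% and 90%. GFP-(GR)50 replicate 2 has 15 of 79 regions in the first 10%, where the other 4 libraries have 2 of 77.

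Some exon regions lay at the start of a transcript. A control region did so too: in untransfected cells the SENP7 region of 13 uniquely mapping reads (chr3:101513193-101513245, hg38) covers the first base of the RefSeq gene. For 4 genes with 5 uniquely mapping reads each with GFP-(GR)50 replicate 2, RefSeq's promoter table holds the first transcript bases under the region, and these bases show what such a region holds. The sequences are RefSeq's (GRCh38.p14), written 5′ to 3′ on the gene's strand, with the bases inside the listed region in capitals. Whether the files count bases from 0 or from 1 was not stated in the sources at hand, so the edge of the capitals could shift by 1 base. ODC1 (chr2:10448298-10448327, minus strand) encodes ornithine decarboxylase, the first enzyme of polyamine synthesis. MCOLN3 (chr1:85048471-85048500, minus strand) encodes a mucolipin cation channel. RREB1 (chr6:7107961-7107990, plus strand) encodes a zinc-finger transcription factor. The first 3 windows are bases 1 to 30 of a RefSeq transcript, and the window of AASDHPPT (chr11:106077682-106077711, plus strand), a phosphopantetheinyl transferase gene, is bases 21 to 50. The RREB1 transcript used here starts inside the RefSeq gene span. Its region, 0.175% of the way along the gene, does not cover the first base of the gene.
ODC1: GTCAGTCCCTCCTGTAGCCGCCGCCGCCGC
MCOLN3: GACTCTGGGCGGAGCGGGGCTCGAGGCTGC
RREB1: ATTCCTTTTCCGGAACAAGTTTGCATCTCT
AASDHPPT: gagatagcggcgaggtccgctttcAGTGTA
The ODC1 and MCOLN3 windows are 76.7% G or C, the AASDHPPT window is 56.7% and the RREB1 window is 40%. These 4 windows were picked after the data were seen and do not describe start regions in general. All 30 bases of the first 3 windows lie in the listed region, and 6 of 30 do in AASDHPPT.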

How the data were processed

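The submitters' processing notes name Novoalign 4.03.03, UMI-tools 1.1.2, bedtools 2.30.0 and featureCounts 2.0.2 with the builds hg38 and GRCh38.p13; the sources used here do not give how regions were called and filtered. In each of the 5 deposited lists there is a count of uniquely mapping reads per region, with 6 values of GFP-(GR)50 replicate 2 that are not whole and lie in no member region. The second deposited value is an estimated count in which, per the file headers, multimapping reads were scaled, and it is 5 or more in every region. Neither is normalised for depth.

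From these, regions annotated as rRNA, or matching an rRNA contig region in width and reads, were set aside, and shares, exact Clopper-Pearson 95% intervals, two-sided Fisher exact tests and an exact permutation test over libraries were computed (Python 3.11.15, pandas 2.3.3, scipy 1.17.1). The share computation was tested on simulated data. GFP-(GR)50 replicates were compared with controls of their own experiment. Gene positions came from RefSeq (GRCh38.p14), where 144 of 149 names matched. Alternatives covered the denominator, read minimums, list size, the genes left out each library in turn and the experiment as a block. Apart from the first bases of 4 transcripts, region sequence was not analysed here, nor was coding share.

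The members and gene lists were chosen with earlier results of these data known. Named genes are those listed in at least 2 libraries, all of GFP-(GR)50 replicate 1, the 10 with the most uniquely mapping exon reads in replicate 2, the 3 with the most in each control and up to 4 members of each list. Genes named for wide regions, transcript starts, ties, mitochondrial function or as lying outside a list were chosen after their values were seen. A gene that this rule names is not reported here.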

Additional observations from a re-analysis of the deposited data

How the results depend on the processing

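The gain in region share of GFP-(GR)50 replicate 1 over GFP, 11.9 points, was 2.92 with all listed regions as the total (adjusted p 0.0875, Fisher exact), 17.1 outside structured RNA and contigs (0.0602), 0 among regions of at least 10 listed reads and 25 over exon and intron regions alone (0.131, chosen after seeing the data). At 10 listed reads, replicate 2 gained 2.40 points over untransfected cells and 4.29 over GFP-(GP)10 (adjusted p 0.523 for both, Fisher exact). With the 183 most-read regions of each list these turned to -0.189 and -1.36, and without the members' regions wider than a read the latter was 3.85, or 4.78 without any region wider than a read (both chosen after seeing the data). In the other 33 combinations of comparison and setting the region share kept its direction and side of the threshold. Not all of these were separate checks. Taking any classification that contains a protein-coding exon gave the same counts as the main setting. With the 3 control lists together, both comparisons of replicate 2 are the same test, over controls of both experiments. The replicate 1 list holds 183 regions in all, so the cut to that number left it whole. The read ratio of replicate 1 was 8.72 with listed reads. With all unique reads the ratios were 2.72, 1.43 and 0.963, and against untransfected cells the ratio was 3.36 with the left-out genes kept in. Over libraries the difference of 9.43 points ranged from 7.76 to 11.1 when each library was left out, and was 4.45 with all listed regions, 13.8 at 5 or more uniquely mapping reads, 10.4 with the left-out genes kept in and 9.30 with experiment as a block (chosen after seeing the data). The cause of these changes was not tested, beyond fewer regions being compared at the higher minimum. No paired analysis was possible because the controls carry no replicate number; the experiment block stands in its place. The coding-sequence share and the base composition of regions were not run, since the reference used here gives gene spans and start sequences but no exon or coding structure and no genome sequence. Depth limits every single gene, since 148 of 158 regions have under 10 listed reads.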

Other observations

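Some of the genes also carried regions outside their protein-coding exons. Of the 149, 19 had a listed region of another class in some library and 15 had an intron region. Their 18 intron regions included 15 opposite a SINE, a short interspersed repeat. PDPR, whose exon region was listed with GFP (chr16:70159220-70159244, hg38), had an intron region in untransfected cells and with GFP-(GR)50 replicate 2, with 7 and 4 uniquely mapping reads. The intron regions overlap each other (chr16:70138207-70138266 and chr16:70138208-70138272) and lie apart from the exon region. DHX30, an RNA helicase gene, was listed in an exon with GFP-(GR)50 replicate 2 at 6 reads, but in introns with GFP-(GP)10 at 6 reads and in untransfected cells at 5. RREB1 had an intron region of 5 reads beside its region at the start of a transcript, both with GFP-(GR)50 replicate 2. GNAS carried a further region of 14 uniquely mapping reads over a simple repeat in the same library (chr20:58893073-58893114, hg38), close in depth to its exon region of 16 reads. NOP56 was listed through SNORA51, a small nucleolar RNA within the gene, with 6 reads in GFP-(GR)50 replicate 1.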
